A study of Homo sapiens with 30 samples.

Results

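The 10 genes described here encode enzymes that make serine, asparagine and one-carbon units: PHGDH, PSAT1 and PSPH of serine synthesis, SHMT1, SHMT2, MTHFD1, MTHFD2, MTHFD1L and ALDH1L2 of folate metabolism, and ASNS, the asparagine synthetase. They were chosen by name as the enzymes of these linked routes, and each was found once, by its Ensembl gene ID, in all 3 deposited tables, among the 52007 gene IDs that the tables share. All 10 passed the filter on low values (a mean normalized count of at least 10) in each table.

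Serine is made from the glycolytic intermediate 3-phosphoglycerate in consecutive steps by PHGDH, PSAT1 and PSPH. Serine hydroxymethyltransferases, SHMT1 mainly in the cytosol and SHMT2 in mitochondria, then split serine into glycine and a one-carbon unit carried by tetrahydrofolate. In mitochondria MTHFD2 oxidises that unit and MTHFD1L releases it as formate, while ALDH1L2 oxidises it to carbon dioxide and makes NADPH; in the cytosol MTHFD1 takes formate up again for purine and thymidylate synthesis. Several of these genes, with ASNS, are textbook targets of ATF4, the transcription factor of the integrated stress response, and in neuroblastoma serine and one-carbon synthesis is known for its link to MYCN.

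The RNA came from 3 established neuroblastoma cell lines, SK-N-BE(2)c, NGP and IMR32, transfected by lipofectamine 2000 with antisense oligonucleotides (ASOs) at 100 nM. ASO1, ASO2 and ASO10 were directed against the long non-coding RNA NESPR, and NCA was the negative control ASO; the series' title connects NESPR with the attenuation of stress and with cell survival. IMR32 had 4 libraries each of ASO1, ASO2 and NCA, and SK-N-BE(2)c and NGP had 3 libraries each of ASO2, ASO10 and NCA, 30 libraries in 9 groups. All groups had received an ASO and the transfection reagent, and no untransfected cells were analysed here. The level of NESPR is not reported here.

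Depth and sample identity can be given in ranges. Recovered reads ran from 9393587 to 15060356 per library. All 10 adrenergic neuroblastoma markers listed (PHOX2A, HAND2 and others) had a mean of at least 10 over the libraries of each line. Their summed level was lower in the ASO groups of SK-N-BE(2)c and NGP (37230 to 42809 normalized counts) than in their NCA groups (44553 to 50529), and in IMR32 it was 27731 to 30569 with an ASO and 30753 to 32148 with NCA. The blood, endothelial and epithelial markers summed to at most 55.2 normalized counts in any library, with CD3E at 3 reads or fewer in every group. The 3 IMR32 libraries numbered 1 stood apart from the others of their groups: the chi-square per degree of freedom between 2 libraries of a group was 2.63 to 7.33 in the 9 pairs with a library numbered 1 and 1.27 to 2.37 in the 9 pairs without. The enzymes moved with this, since the library numbered 1 was the highest of its group for 9 of 10 enzymes with NCA, 8 with ASO1 and 7 with ASO2, and results in IMR32 are therefore also given without these 3 libraries. Libraries had been made with 1 of 2 kits, one for total RNA and one for mRNA, and the labels do not say which was used for which library, so kit and group could not be separated.

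**Figure D1:**
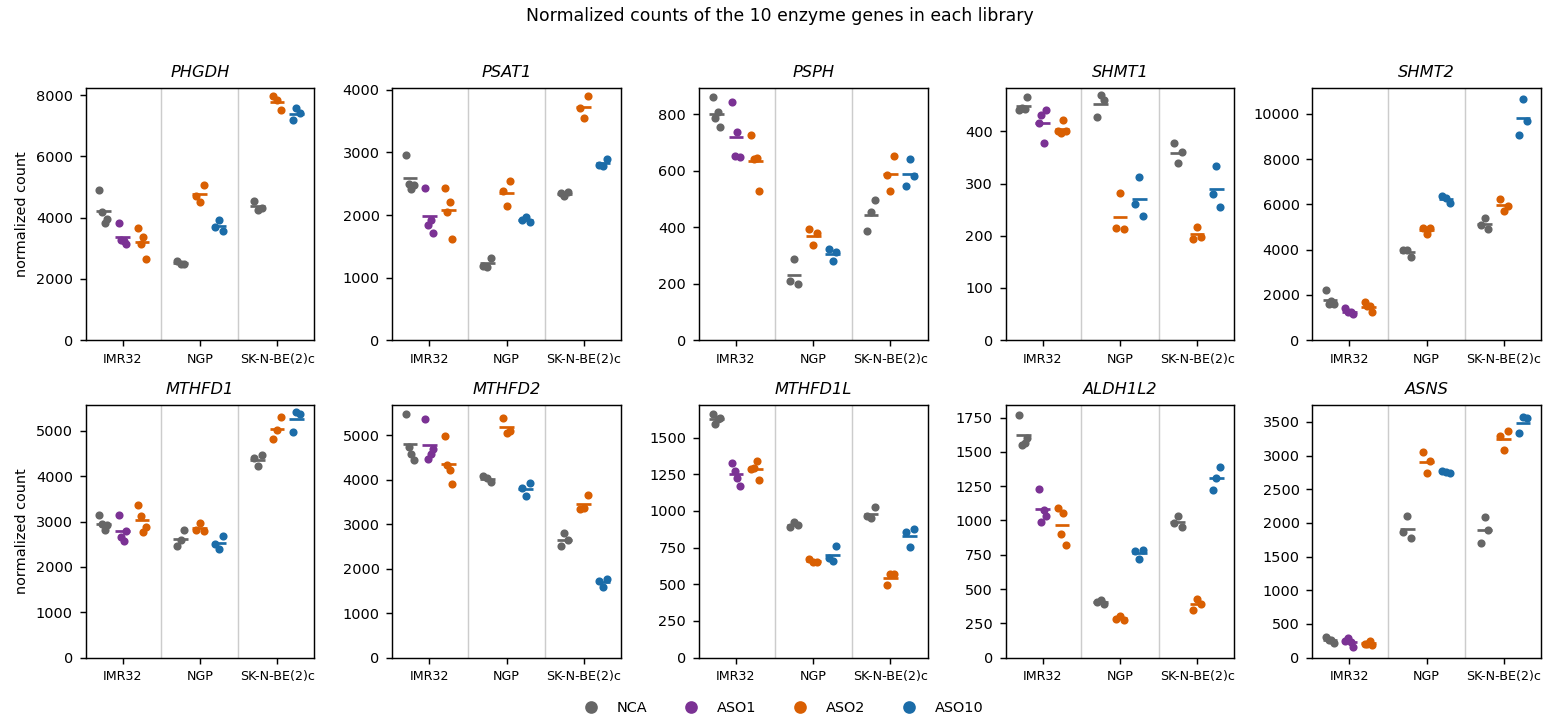
Normalized counts (vertical axes, linear, from 0) of the 10 enzyme genes in every library, by cell line; points are libraries and bars are group means, with NCA in grey, ASO1 in purple, ASO2 in orange and ASO10 in blue. PHGDH, PSAT1 and ASNS lie above NCA with both ASOs in SK-N-BE(2)c and NGP, SHMT1 and MTHFD1L lie below it, and levels in IMR32 are on a scale of their own.

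In SK-N-BE(2)c and NGP most of the enzymes were expressed at a higher level with either ASO than with NCA, and in IMR32 those that changed were lower. In NGP, 6 of 10 enzymes rose and 3 fell with ASO2, where 30.6% of all genes tested were called higher and 58.7% were called in either direction; with ASO10, 6 rose and 2 fell, beside 26.8% higher and 54.4% in either direction among all genes. With each ASO 7 rose and 3 fell in SK-N-BE(2)c, beside 33.6% higher and 67.0% in either direction for ASO2 and 27.8% and 58.9% for ASO10. Called lower were 28.1% (ASO2) and 27.6% (ASO10) of all genes in NGP and 33.4% and 31.1% of those in SK-N-BE(2)c. In IMR32 no enzyme rose, and 5 fell with ASO1 and 6 with ASO2, where 14.4% and 14.8% of all genes tested were called lower and 28.0% and 32.4% in either direction. Counted by overlap alone, the ASO and NCA libraries were separate for 9 (ASO2) and 8 (ASO10) enzymes in NGP, where 62.4% and 59.1% of all genes tested were, and for 10 with each ASO in SK-N-BE(2)c, beside 69.3% and 64.7%. They were separate for 5 with each ASO in IMR32, beside 27.6% (ASO1) and 30.4% (ASO2) of all genes. With more than every other gene called in SK-N-BE(2)c and NGP, a call there says little by itself about these enzymes, and their sizes are the fuller description. The median log2 fold change of the 10 enzymes was 0.35 and 0.47 in NGP (ASO2 and ASO10), 0.30 and 0.34 in SK-N-BE(2)c, and -0.25 and -0.31 in IMR32 (ASO1 and ASO2); over all genes tested it lay between -0.03 and 0.01 in these 6 comparisons. The 2 comparisons of a line share their NCA libraries, so the values of both ASOs are given side by side and not as independent results. Calls are adjusted p under 0.05 from limma with Benjamini-Hochberg adjustment over all genes tested, and fold changes are on the log2(normalized count + 1) scale.

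**Figure D2:**
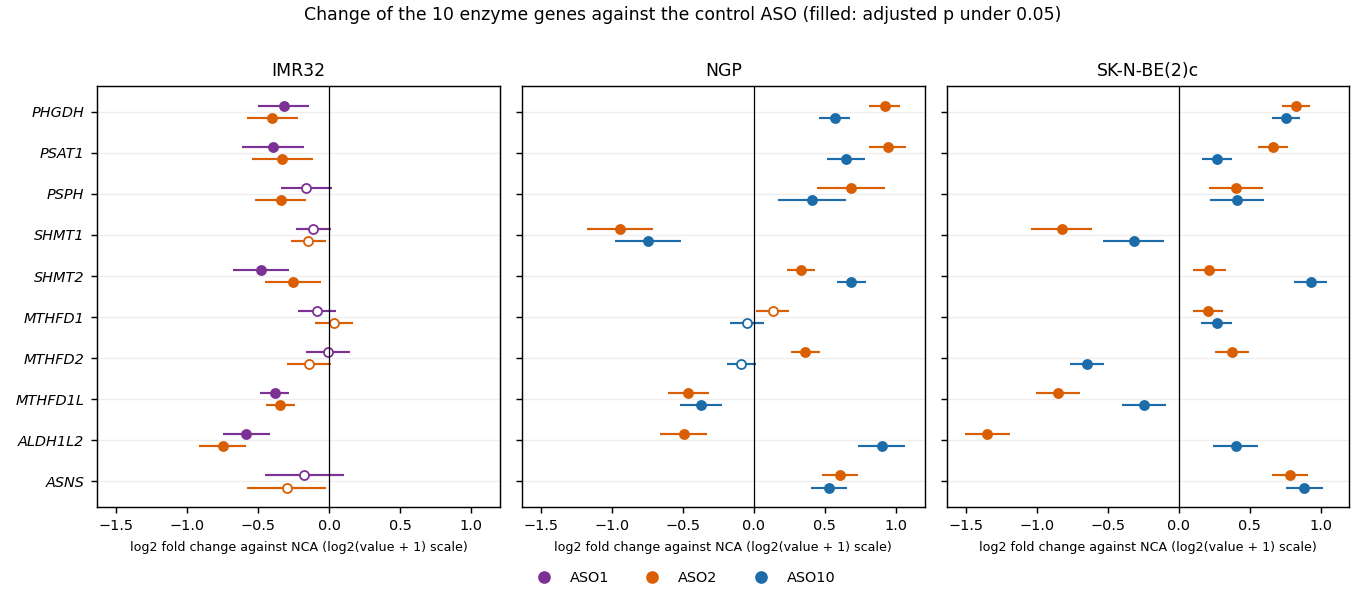
Log2 fold change against NCA (horizontal axes) of the 10 enzyme genes with each ASO in each line; points are limma estimates, bars are 95% confidence intervals, and filled points have an adjusted p under 0.05. Serine synthesis genes and ASNS lie right of 0 in SK-N-BE(2)c and NGP and left of 0 in IMR32, where ASNS and the ASO1 value of PSPH are open, and ALDH1L2 lies on opposite sides of 0 with ASO2 and ASO10.

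The 3 enzymes of serine synthesis rose together in SK-N-BE(2)c and NGP. PHGDH, which catalyses the first and committed step, stood at 2569, 2479 and 2496 normalized counts in the NCA libraries of NGP, at 4717, 4499 and 5080.4 with ASO2 and at 3703, 3925 and 3576 with ASO10. Every ASO library was above every NCA library, and the ASO2 libraries were above the ASO10 libraries. The rise was 1.89-fold with ASO2 (log2 fold change 0.92, SE 0.05, limma adjusted p = 4.04e-13) and 1.48-fold with ASO10 (0.57, SE 0.05, adjusted p = 1.99e-09). PHGDH in SK-N-BE(2)c went from 4552, 4263 and 4304 with NCA to 7963, 7824 and 7503 with ASO2 and 7174, 7570.3 and 7421 with ASO10. Again no ASO library overlapped with NCA, and here the ASO2 and ASO10 libraries overlapped with each other. These were rises of 1.78-fold (0.83, SE 0.05, adjusted p = 2.03e-14) and 1.69-fold (0.76, SE 0.05, adjusted p = 2.65e-13).

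PSAT1, the aminotransferase of the second step, rose more with ASO2 than with ASO10 in both of these lines. In NGP it was measured at 1193, 1169 and 1316 with NCA, 2390.5, 2138 and 2545 with ASO2 and 1918, 1962 and 1889 with ASO10. The 3 groups did not overlap, with log2 fold changes of 0.94 (SE 0.06) and 0.65 (SE 0.06). The NCA libraries of SK-N-BE(2)c held 2351, 2312 and 2364, the ASO2 libraries 3714, 3544 and 3897 and the ASO10 libraries 2807, 2779 and 2899. The groups were again separate, with log2 fold changes of 0.67 (SE 0.05, limma adjusted p = 7.76e-12) and 0.27 (SE 0.05, adjusted p = 6.42e-05). PSPH, the phosphatase that releases serine, was the least abundant of the 3. It rose by 0.68 (ASO2) and 0.41 (ASO10) on the log2 scale in NGP and by 0.40 and 0.41 in SK-N-BE(2)c. One NCA library of NGP, at 289 against 210.3 and 198 for the others, overlapped with the ASO10 libraries (281 to 322). The pseudogene PSPHP1 had a mean of 60.3 normalized counts in the NGP table and 37.7 in that of SK-N-BE(2)c, so some PSPH reads may be divided between both.

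ASNS, which makes asparagine from aspartate and glutamine, rose with both ASOs in SK-N-BE(2)c and NGP. Its NGP libraries held 1862, 2102 and 1771 normalized counts with NCA, 3059.8, 2739.9 and 2923 with ASO2 and 2763, 2763 and 2736 with ASO10. The ASO libraries were above all NCA libraries, by 1.52-fold (log2 0.61, SE 0.06, limma adjusted p = 5.09e-09) and 1.44-fold (0.53, SE 0.06, adjusted p = 5.65e-08). The SK-N-BE(2)c values were 1695, 2086 and 1899.6 with NCA, 3296, 3089 and 3371 with ASO2 and 3339.5, 3576 and 3554 with ASO10. The rises were 1.72-fold (0.78, SE 0.06) and 1.85-fold (0.89, SE 0.06), again without overlap with NCA. The ASNSP1 pseudogene had a mean of 46.3 in SK-N-BE(2)c and 0.101 in NGP.

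The serine hydroxymethyltransferases went in opposite directions in SK-N-BE(2)c and NGP. SHMT2, the mitochondrial enzyme, stood at 3995, 3964 and 3660.2 normalized counts with NCA in NGP, 4954, 4703 and 4942 with ASO2 and 6358, 6274 and 6066 with ASO10. It was at 5072, 5408 and 4912 with NCA in SK-N-BE(2)c, 6251, 5687 and 5918 with ASO2 and 9055, 10669.6 and 9692 with ASO10. All groups were separate in both lines and the order was NCA, ASO2, ASO10. The rise was 1.26-fold and 1.61-fold in NGP and 1.16-fold and 1.91-fold in SK-N-BE(2)c (log2 0.33, 0.69, 0.21 and 0.93, SE 0.05 to 0.06). The smallest of these, ASO2 in SK-N-BE(2)c, was no longer called after libraries were scaled to one total, a step that shifted the median over all genes of the comparison from -0.02 to -0.15 (SHMT2 then 0.08, limma adjusted p = 0.235).

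SHMT1, the cytosolic enzyme, fell in the same libraries. Its NGP values were 427, 469.7 and 459 with NCA, 214, 281 and 212 with ASO2 and 261, 312 and 239 with ASO10. The ASO libraries lay below all NCA libraries, at 0.519 and 0.596 of the control level (log2 -0.95 and -0.75, SE 0.11 each; limma adjusted p = 1.1e-07 and 4.71e-06). SK-N-BE(2)c held 378, 339.8 and 360.5 with NCA, 193, 218 and 197 with ASO2 and 281, 334 and 255 with ASO10. ASO2 brought it to 0.565 of control (log2 -0.82, SE 0.11) and ASO10 to 0.803 (-0.32, SE 0.11, adjusted p = 0.0115), with 1 ASO10 library close below the lowest NCA library. Without ASO10 replicate 3 the latter was -0.23 and missed the threshold (adjusted p = 0.101). SHMT1 overlaps SMCR8 on the opposite strand, and SMCR8 changed by 0.30 and -0.32 in NGP and by 0.72 and 0.24 in SK-N-BE(2)c (ASO2 and ASO10). SMCR8 thus fell, as SHMT1 did, only with ASO10 in NGP. Whether counting used strand is not given in the sources used here, and a share of SMCR8 reads in the SHMT1 values was not tested. Per kilobase of exons, SHMT2 exceeded SHMT1 12.9-fold with NCA, 31.6-fold with ASO2 and 35.1-fold with ASO10 in NGP (SD 1.06, 5.62 and 4.23, n = 3 each). The ratio in SK-N-BE(2)c was 21.6, 44.4 and 51.3 (SD 2.08, 4.71 and 5.21, n = 3 each).

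Of the enzymes after SHMT2, MTHFD2 and ALDH1L2 responded to ASO2 and ASO10 in opposite directions in SK-N-BE(2)c, and ALDH1L2 did so in NGP too. MTHFD2, the mitochondrial dehydrogenase and cyclohydrolase, stood in SK-N-BE(2)c at 2511, 2791 and 2651 normalized counts with NCA, 3338, 3358 and 3649.5 with ASO2 and 1729, 1589 and 1769 with ASO10. The 3 groups were separate, ASO2 above and ASO10 below NCA, at 1.30-fold (log2 0.38, SE 0.06) and 0.640 of control (-0.65, SE 0.06; limma adjusted p = 1.9e-06 and 2.45e-10). In NGP it rose with ASO2 from 4074, 4034 and 3954 to 5375, 5042 and 5096 (0.36, SE 0.05). With ASO10 it was at 3806, 3619 and 3922, which was below every NCA library but did not pass the test (-0.09, 95% interval -0.19 to 0.01, limma adjusted p = 0.127).

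ALDH1L2, the mitochondrial 10-formyltetrahydrofolate dehydrogenase, had the widest spread of responses among the 10 enzymes. In NGP its values were 407, 422 and 389.7 with NCA, 284, 302 and 277 with ASO2 and 778, 719 and 781 with ASO10. ASO2 lay below and ASO10 above NCA without overlap, at 0.709 of control (log2 -0.50, SE 0.08) and 1.87-fold (0.90, SE 0.08). SK-N-BE(2)c held 978, 1035 and 950.3 with NCA, 347, 429 and 389.9 with ASO2 and 1222, 1311 and 1389 with ASO10. There ASO2 lowered it to 0.393 of control (-1.35, SE 0.08, limma adjusted p = 1.17e-14) and ASO10 raised it 1.32-fold (0.40, SE 0.08, adjusted p = 5.67e-05). The gene overlaps C12orf45 on the opposite strand, which was called only with ASO10 in these lines and then lower (-0.49 and -0.69), where ALDH1L2 was higher. A share of C12orf45 reads in the ALDH1L2 values was not tested.

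**Figure D3:**
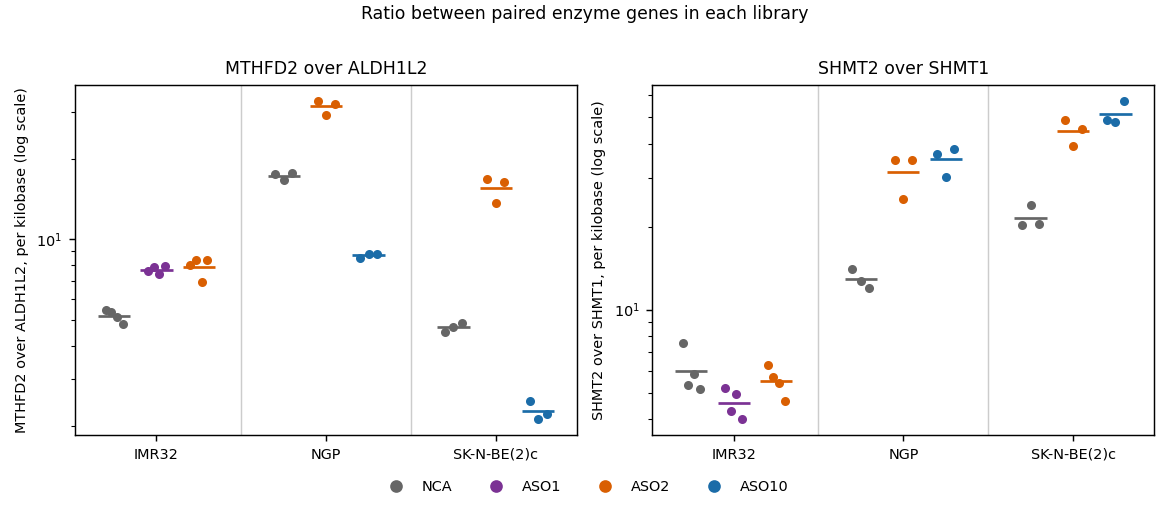
Ratio of MTHFD2 to ALDH1L2 (left) and of SHMT2 to SHMT1 (right) in every library, from normalized counts per kilobase of exons, on log axes; points are libraries, bars are group means, and colours mark NCA (grey), ASO1 (purple), ASO2 (orange) and ASO10 (blue). The left ratio is above NCA with ASO2 and below it with ASO10 in SK-N-BE(2)c and NGP, and the right ratio is above NCA with both.

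The ratio between both enzymes shows the split within each library. Per kilobase, MTHFD2 exceeded ALDH1L2 17.3-fold with NCA in NGP, 31.4-fold with ASO2 and 8.70-fold with ASO10 (SD 0.53, 2.04 and 0.14, n = 3 each). In SK-N-BE(2)c the ratio was 4.69, 15.6 and 2.27 (SD 0.20, 1.69 and 0.18, n = 3 each), with no overlap between groups. In IMR32 it was 5.17 with NCA, 7.70 with ASO1 and 7.91 with ASO2 (SD 0.26, 0.23 and 0.66, n = 4 each), where both ASO groups were above NCA.

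MTHFD1L, the mitochondrial formate-releasing synthetase, fell with every ASO in every line. In NGP it was measured at 889.6, 922 and 906 normalized counts with NCA, 669, 651 and 653 with ASO2 and 681, 660.0 and 760.4 with ASO10. In SK-N-BE(2)c the values were 963, 955 and 1025, then 494, 569 and 571, then 859, 753 and 879 in the same order. The ASO libraries were below all NCA libraries in both lines, by log2 fold changes of -0.46 and -0.37 in NGP and -0.85 and -0.24 in SK-N-BE(2)c (SE 0.07 to 0.08). The last of these, for ASO10 in SK-N-BE(2)c, had a limma adjusted p = 0.00784 and was -0.17 without ASO10 replicate 2 and then missed the threshold (adjusted p = 0.0721). MTHFD1, the cytosolic trifunctional enzyme, rose in SK-N-BE(2)c from 4411, 4235 and 4460.4 with NCA to 4824, 5026 and 5299 with ASO2 and 4983, 5417 and 5375 with ASO10. These were small rises without overlap with NCA, of 0.21 and 0.27 (SE 0.05 each), and the first was 0.07 and no longer called after rescaling to the same total. In NGP, MTHFD1 did not pass the test with either ASO: it stood at 2619 ± 176 with NCA, 2866 ± 95.9 with ASO2 and 2532 ± 142 with ASO10 (SD, n = 3).

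In IMR32 the enzymes that passed the test were all lower with an ASO. ALDH1L2 moved most, from 1765, 1551, 1563 and 1601 with NCA to 1232, 989.6, 1075 and 1034 with ASO1 and 1090.2, 902, 1057 and 819 with ASO2. No ASO library reached the lowest NCA library, and the level was 0.667 and 0.594 of control (log2 -0.58 and -0.75, SE 0.08 each; limma adjusted p = 1.43e-05 and 9.82e-07). MTHFD1L held 1662, 1590.0, 1629.8 and 1633 with NCA, 1328, 1274, 1224 and 1171 with ASO1 and 1288, 1294, 1340.2 and 1210.2 with ASO2. The groups were separate from NCA here too, at log2 fold changes of -0.38 and -0.34 (SE 0.05 each).

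PHGDH fell in IMR32, from 4908, 4171, 3835 and 3955 with NCA to 3817, 3279, 3246 and 3139 with ASO1 and 3663, 3143, 3354 and 2653 with ASO2. Each ASO library was below the lowest NCA library, by a narrow margin for the ASO1 library numbered 1 (log2 -0.32 and -0.40, SE 0.09 each, limma adjusted p = 0.00735 and 0.00132). PSAT1 fell by 0.40 and 0.33 on the log2 scale (SE 0.10 each), and there the ASO library numbered 1 of each group, at 2427 and 2432, overlapped with the lowest NCA library at 2422. SHMT2 fell by 0.48 with ASO1 and 0.26 with ASO2 (SE 0.10 each). The SHMT2 call with ASO2 (limma adjusted p = 0.0438) was lost when any of 8 single libraries was left out (adjusted p 0.051 to 0.179), and SHMT2 was then -0.15 without NCA replicate 1. The PSAT1 call with ASO2 (adjusted p = 0.0191) was lost without ASO2 replicate 4 (-0.22), without NCA replicate 1 (-0.27) and with DESeq2 (-0.32). PSPH fell with ASO2 (-0.34, SE 0.09, adjusted p = 0.00469) and had a log2 fold change of -0.16 with ASO1 that did not pass (adjusted p = 0.18). SHMT1, MTHFD1, MTHFD2 and ASNS did not pass with either ASO in IMR32. The SHMT1 libraries of both ASOs were still below every NCA library (log2 -0.11 and -0.15, limma adjusted p = 0.18 and 0.0623). With ASO2, SHMT1 was called lower in 6 of 23 alternatives and MTHFD2 and ASNS in 4 each. With ASO1, MTHFD1 was called lower in 2 of 23. Without the 3 libraries numbered 1, an alternative added after the data were seen, no enzyme rose and 7 fell with each ASO, PSPH and MTHFD1 being added with ASO1 and MTHFD2 with ASO2. Calls rose over all genes too. Of 17393 genes then tested, 2984 (ASO1) and 3071 (ASO2) were called lower, beside 2496 and 2556 of 17309 with all libraries.

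ASNS had the lowest counts of all the enzymes in IMR32. They were 308, 260.3, 257 and 223 normalized counts with NCA, 250.05, 289, 239 and 163 with ASO1 and 204, 206, 252 and 189 with ASO2. The 3 groups overlapped (log2 fold changes -0.18, 95% interval -0.46 to 0.10, and -0.30, interval -0.58 to -0.02; limma adjusted p = 0.358 and 0.0931). The IMR32 table also lists AC079781.5, a transcript on the same strand that shares 1985 of the 4455 exonic bases of ASNS (44.6%) in GENCODE release 29, and the other tables do not list it. A read in shared exons can be left uncounted or assigned to either gene, and how the authors treated such reads is not given in the sources used here. AC079781.5 had means of 79.4 with NCA, 68.5 with ASO1 and 58.0 with ASO2, and fell with ASO2 (log2 -0.46, limma adjusted p = 0.0241). Since the IMR32 table had been scaled alone, its levels are in any case not compared with other lines.

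Compared per kilobase of exons within a group, the enzymes covered a wide range. In the NCA libraries of NGP, MTHFD2 was highest at 825.5 normalized counts per kilobase, then SHMT2 at 800.6 and PSAT1 at 560.2, and ALDH1L2 was lowest at 47.7, below SHMT1 at 62.1. With ASO10 SHMT2 took the first place in NGP (1288) and with ASO2 PSAT1 did (1078 ± 94.0, SD), which is within the spread of MTHFD2 (1062 ± 36.7) and SHMT2 (1006 ± 29.3). In SK-N-BE(2)c PSAT1 (1071) and SHMT2 (1061) stood close together with NCA, and SHMT2 reached 2027 with ASO10. Ranked from the highest level, MTHFD2 was at rank 3 of the 10 with NCA in SK-N-BE(2)c, 5 with ASO2 and 6 with ASO10. SHMT1 held the last place in each group of that line, at 27.8 to 49.4. In IMR32 PSAT1 (1183) and MTHFD2 (986) led with NCA. Lengths are unions of all annotated exons, so a gene whose main transcript is short is understated.

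The ASOs were also compared directly within each line. In NGP, 7 of 10 enzymes differed between ASO2 and ASO10, where 58.6% of all genes did (30.6% higher and 28.0% lower with ASO2): PHGDH, PSAT1, PSPH, MTHFD1 and MTHFD2 were higher with ASO2, and SHMT2 and ALDH1L2 lower. The PSPH call (0.27, limma adjusted p = 0.0478) was lost in 12 of 19 alternatives (0.21 to 0.34 over all 19), among them edgeR, DESeq2 and leaving out each of 6 single libraries. The MTHFD1 call (0.18) was lost in 3: after rescaling to the same total (0.12) and without replicate 2 of ASO2 (0.15) or of ASO10 (0.14). For SK-N-BE(2)c, 6 differed, beside 65.4% of all genes (34.6% higher and 30.8% lower with ASO2): PSAT1 and MTHFD2 were higher with ASO2, and SHMT1, SHMT2, MTHFD1L and ALDH1L2 lower. ALDH1L2 differed most, at log2 -1.40 (SE 0.08) in NGP and -1.75 (SE 0.08) in SK-N-BE(2)c, followed in SK-N-BE(2)c by MTHFD2 at 1.02 (SE 0.06) and SHMT2 at -0.72 (SE 0.06). ASNS was not called as different between the ASOs in either line (0.08, 95% interval -0.05 to 0.20, and -0.10, interval -0.23 to 0.03). In SK-N-BE(2)c it was called in 1 of 19 alternatives (-0.21 to -0.07 over all 19). The same held for MTHFD1 in SK-N-BE(2)c (-0.17 to -0.03) and SHMT1 in NGP (-0.33 to -0.09). In IMR32, 0 enzymes differed between ASO1 and ASO2 by limma, where 21.9% of all genes did (9.17% higher and 12.8% lower with ASO1). At an unadjusted p under 0.05 the count was 3, namely SHMT2, PSPH and ALDH1L2, and edgeR and DESeq2 on recovered reads each called 0 as well. Without the 3 libraries numbered 1, 5 enzymes differed: PSPH, MTHFD2 and ALDH1L2 were higher and SHMT2 and MTHFD1 lower with ASO1 than with ASO2. Of all 17393 genes then tested, 5016 differed, beside 3795 of 17309 with all libraries.

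Whether an ASO acted alike in SK-N-BE(2)c and NGP was tested by the difference of the log2 fold changes in one fit of all 18 libraries of these lines. For ASO2, 3 enzymes differed, beside 16.7% of all genes: ALDH1L2 (-0.85, SE 0.11), MTHFD1L (-0.39, SE 0.10) and PSAT1 (-0.28, SE 0.08) had lower values in SK-N-BE(2)c. For ASO10, 6 differed, beside 16.9% of all genes. MTHFD2 (-0.56), ALDH1L2 (-0.50) and PSAT1 (-0.38) had lower values in SK-N-BE(2)c and ASNS (0.36), MTHFD1 (0.32) and SHMT2 (0.25) higher ones, with SE 0.07 to 0.11. The SHMT2 difference for ASO10 was lost in 9 of 28 alternatives (0.18 to 0.30, limma adjusted p up to 0.116, the highest without ASO10 replicate 2 of SK-N-BE(2)c), and the PSAT1 difference for ASO2 in 5 of 28 (-0.34 to -0.22, adjusted p up to 0.0697, the highest without ASO2 replicate 3 of NGP). Among enzymes called in both lines, the same sign thus went with different sizes for PSAT1 and ALDH1L2 with each ASO. The same held for MTHFD1L with ASO2 and for ASNS and SHMT2 with ASO10. PHGDH did not pass in either test (ASO2 -0.09, 95% interval -0.24 to 0.05; ASO10 0.19, interval 0.04 to 0.33, limma adjusted p = 0.0639).

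Across the 30 libraries, after the mean of each line was subtracted, PHGDH followed PSAT1 (Pearson's r = 0.92), ASNS (0.86) and PSPH (0.84) most closely among the enzymes. These 3 pairs had a positive r in each line taken alone, the lowest being 0.65 for ASNS in IMR32. SHMT1 had r = -0.72 to PHGDH, -0.77 to PSAT1 and -0.63 to ASNS over all libraries, but the sign differed by line: its r to PHGDH was -0.92 in NGP, -0.78 in SK-N-BE(2)c and 0.56 in IMR32, and in IMR32 it was 0.42 to PSAT1 and 0.24 to ASNS. With MTHFD1L it had r = 0.78, and 0.69 to 0.89 within lines. ALDH1L2 had r = -0.68 to MTHFD2, which was -0.88 in SK-N-BE(2)c and -0.85 in NGP but 0.58 in IMR32. Its r of -0.10 to PHGDH joined 0.93 in IMR32 with -0.23 for NGP and -0.37 for SK-N-BE(2)c, and its r of 0.03 to ASNS joined 0.56 in IMR32 with 0.05 for NGP and -0.19 for SK-N-BE(2)c. Its r of 0.65 to MTHFD1L was 0.92 in IMR32, 0.86 in SK-N-BE(2)c and 0.02 in NGP, and its r of 0.58 to SHMT2 was 0.49 to 0.74 within lines. In IMR32 the libraries numbered 1, which were high for most enzymes, enter these values. The libraries share lines, treatments and scaling, so these are descriptions without a test.

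**Figure D4:**
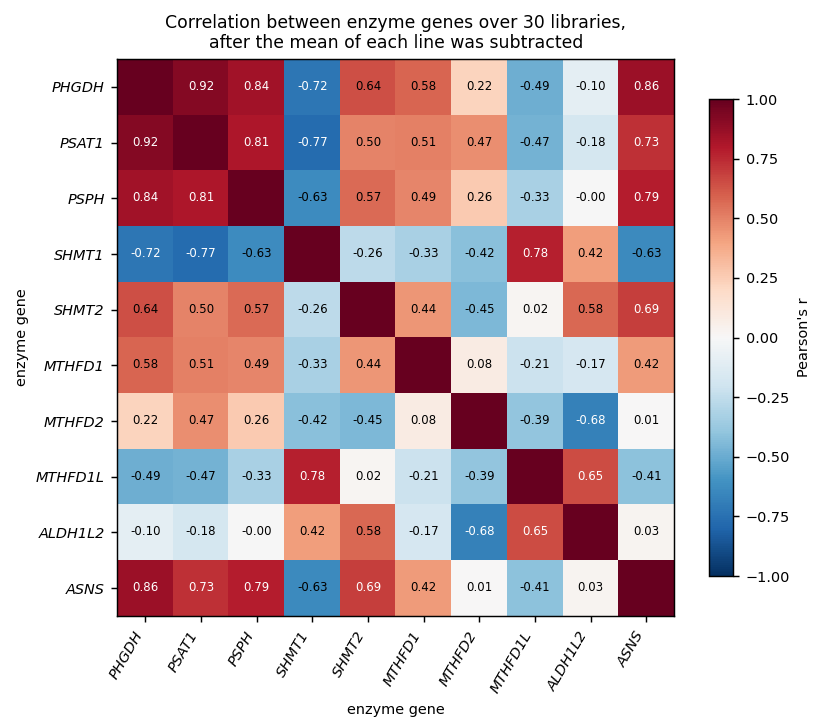
Pearson's r between the log2 levels of each pair of enzyme genes over the 30 libraries after the mean of each line was subtracted; both axes list the 10 genes and the colour runs from -1 (blue) to 1 (red). PHGDH, PSAT1, PSPH and ASNS form a block of r from 0.73 to 0.92, and MTHFD2 and ALDH1L2 have r = -0.68, which within IMR32 alone is 0.58.

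Among the 11594 genes tested in all 3 lines, the nearest to PHGDH by this measure were SLC7A1 (0.95), SLC7A5 (0.94) and SLC1A5 (0.93), which are amino acid transporters, and PSAT1 was at rank 5. The nearest to ASNS were ATF5 (0.88), SLC7A1 (0.87) and PHGDH (0.86). The nearest to SHMT2 were KCNG1 (0.92), a potassium channel subunit, YARS1 (0.92), the tyrosyl-tRNA synthetase, and GPT2 (0.91), the mitochondrial alanine aminotransferase. PHGDH was at rank 588 for SHMT2. ATF4 itself stood at rank 52 for ASNS (0.76), 390 for PHGDH (0.69) and 596 for SHMT2 (0.64).

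The letters TGATGNAA, a form of the composite C/EBP-ATF element bound by ATF4 with a C/EBP partner, were searched on both strands of the RefSeq promoter windows (GRCh38.p14, 300 bases, from 250 before to 50 after a start), in which 7 of the 10 genes had an entry. They occurred in a window of 2 of these 7, ASNS and MTHFD1L, and in 3.62% of all 35116 windows. The 30 bases around each match are shown because these genes hold the same element and moved in opposite directions in SK-N-BE(2)c and NGP; the capitals mark the element, and the strand is that of the gene.
ASNS, chr7:97872458-97872487, minus strand: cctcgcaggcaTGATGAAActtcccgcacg
MTHFD1L, chr6:150866346-150866375, plus strand: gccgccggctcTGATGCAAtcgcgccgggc
The element began 68 bases before the start of the ASNS window printed and 129 bases before that of the MTHFD1L window printed. ASNS had 2 windows, of which 1 held it, and MTHFD1L had 4, of which 3 did; the share over all windows is per window and not per gene. PHGDH, PSAT1, SHMT1, MTHFD1 and MTHFD2 did not hold these letters in their windows, of which PHGDH and PSAT1 rose and SHMT1 fell in SK-N-BE(2)c and NGP. The E-box letters CACGTG occurred in windows of MTHFD1 and MTHFD1L and in 7.26% of all windows. A match is a description of the letters and not of binding.

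ATF4 and other factors of the stress response were higher where PHGDH, PSAT1 and ASNS were higher. In NGP, 10 of 11 tested genes of the list of ATF4 and stress factors rose with ASO2 and 11 with ASO10. In SK-N-BE(2)c 11 of 11 rose with each ASO, and medians in both lines were 0.70 to 0.83 on the log2 scale. Of all genes tested, 30.6% (ASO2) and 26.8% (ASO10) were called higher in NGP, and 33.6% and 27.8% in SK-N-BE(2)c. ATF4 rose from 3822 ± 387 with NCA to 5300.2 ± 238 with ASO2 and 6673 ± 226 with ASO10 in NGP, and from 4776 ± 281 to 8075 ± 227 and 8633 ± 477 in SK-N-BE(2)c (normalized counts, SD, n = 3). ATF5, an ATF4-related factor, rose by 1.07 to 1.28 on the log2 scale in the 4 comparisons of these lines. TRIB3, a pseudokinase induced by ATF4, rose by 0.89 and 1.02 in NGP (ASO2 and ASO10) and by 0.82 and 1.60 in SK-N-BE(2)c. CHAC1, which degrades glutathione, rose by 0.72 and 0.68 and by 0.37 and 0.83. DDIT3, which encodes CHOP, rose by 0.22 and 0.80 in SK-N-BE(2)c and by 0.56 with ASO10 in NGP, where its value with ASO2 was 0.11 (limma adjusted p = 0.29).

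In IMR32, 4 of 11 genes of this list were higher and 2 lower with ASO1, and 5 and 2 with ASO2. Among all genes tested, 13.6% and 17.6% were called higher and 14.4% and 14.8% lower. The lower calls in the list were thus near the share of all genes. DDIT3 rose by 0.98 and 1.00 (ASO1 and ASO2), from 101 ± 12.2 to 201 ± 27.7 and 203 ± 19.1 normalized counts (SD, n = 4), and ATF3 rose by 0.77 and 0.73. ATF4 rose with ASO1 (0.29) and had 0.13 with ASO2 (limma adjusted p = 0.25). ATF5 fell by 0.31 and 0.42. CHAC1 did not pass with either ASO, and TRIB3 rose with ASO2 alone past the test (0.32). PPP1R15A, the stress-induced phosphatase subunit for eIF2alpha, rose in all 6 comparisons, by 1.70 and 1.32 in IMR32, 0.77 and 0.41 in NGP (ASO2 and ASO10) and 1.15 and 1.29 in SK-N-BE(2)c. The kinases EIF2AK3 (PERK) and EIF2AK1 (HRI) rose with ASO2 in each line. They did so by 0.18 and 0.25 in IMR32, 0.71 and 0.69 in NGP and 0.80 and 0.76 in SK-N-BE(2)c. Each was called in 4 of the 6 comparisons with NCA, so not in every comparison with ASO1 or ASO10. Their values and directions with ASO1 and ASO10 are not reported here, so the rise is stated for ASO2 only.

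**Figure D5:**
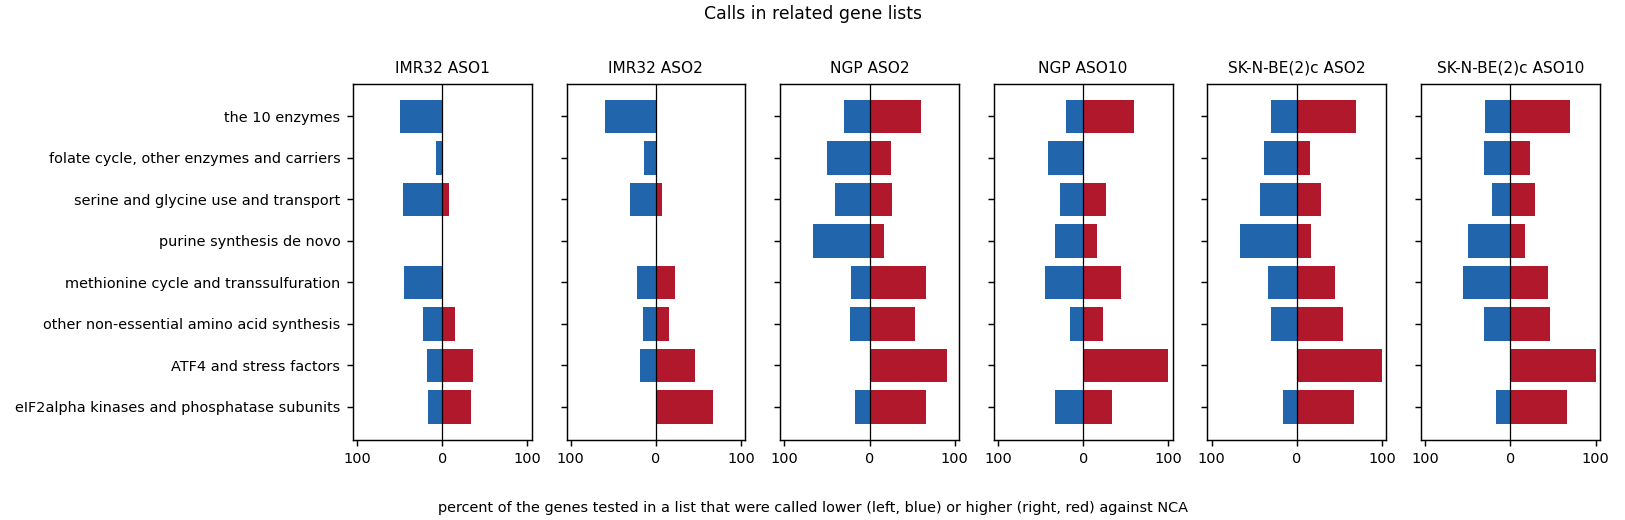
Percent of the tested genes of each list called higher (right, red) or lower (left, blue) against NCA in the 6 comparisons, by limma adjusted p under 0.05. The ATF4 and stress factors are all or nearly all higher in SK-N-BE(2)c and NGP, the 10 enzymes are mixed, and in IMR32 the enzymes have calls on the lower side only.

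Among the other genes of the folate cycle, more were called lower than higher in each of the 6 comparisons. In SK-N-BE(2)c and IMR32, however, the share called lower was near or below that of all genes. The counts stand beside 30.6% higher and 28.1% lower (ASO2) and 26.8% and 27.6% (ASO10) of all genes in NGP. In SK-N-BE(2)c these shares were 33.6% and 33.4% (ASO2) and 27.8% and 31.1% (ASO10). In IMR32 they were 13.6% and 14.4% (ASO1) and 17.6% and 14.8% (ASO2). These shares hold for the lists that follow as well. Of 12 tested in NGP, 3 rose and 6 fell with ASO2, and 0 rose and 5 fell with ASO10; of 13 in SK-N-BE(2)c, 2 rose and 5 fell with ASO2 and 3 rose and 4 fell with ASO10. In IMR32, 0 of 14 rose and 1 (ASO1) or 2 (ASO2) fell. SLC46A1, the proton-coupled folate transporter, fell by 0.96 and 0.61 in NGP and 1.05 and 0.97 in SK-N-BE(2)c (log2, ASO2 and ASO10). SLC25A32, the mitochondrial folate carrier, fell by 0.33 and 0.67 and by 0.44 and 0.82. MTHFD2L, the paralogue of MTHFD2, fell in both lines as well, by 0.38 to 0.64. Among 6 genes of purine synthesis, which uses 10-formyltetrahydrofolate, 4 fell and 1 rose with ASO2 in each of these lines, and with ASO10 2 fell and 1 rose in NGP and 3 fell and 1 rose in SK-N-BE(2)c; GART fell in all 4 comparisons there (by 0.13 to 0.36), and in IMR32 0 of 6 passed with either ASO.

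Users and carriers of serine had calls in both directions, with shares of higher calls near those of all genes in the lines other than IMR32. Of the genes of serine and glycine use and transport, 4 of 15 rose in NGP with each ASO, while 6 fell with ASO2 and 4 with ASO10; in SK-N-BE(2)c 4 of 14 rose with each and 6 and 3 fell. In IMR32, 1 of 13 rose with each ASO and 6 (ASO1) and 4 (ASO2) fell, beside 13.6% and 17.6% of all genes higher and 14.4% and 14.8% lower. SFXN2, a sideroflexin of the family that carries serine into mitochondria, fell in all 6 comparisons, by 0.32 and 0.22 in IMR32 (ASO1 and ASO2), 1.02 and 0.65 in NGP and 1.14 and 0.57 in SK-N-BE(2)c. SLC1A5, a neutral amino acid exchanger, rose by 0.57 and 0.21 in NGP (ASO2 and ASO10) and by 0.63 and 0.39 in SK-N-BE(2)c. SLC1A4, which also carries serine, rose in NGP (0.62 and 0.50) and with ASO10 in SK-N-BE(2)c (0.47), and fell in IMR32 (by 0.49 and 0.45).

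In the methionine cycle and transsulfuration, MTR and CTH moved apart. MTR, the methionine synthase that uses 5-methyltetrahydrofolate, fell in all 6 comparisons, to the greatest extent with ASO2 in NGP (by 0.98) and SK-N-BE(2)c (by 1.14), against 0.27 and 0.28 with ASO10 and 0.36 and 0.21 in IMR32. CTH, which releases cysteine from cystathionine, rose by 1.40 and 0.81 in NGP and by 0.67 and 0.40 in SK-N-BE(2)c, and did not pass in IMR32. Of the other enzymes of non-essential amino acid synthesis, 7 of 13 rose and 3 fell with ASO2 in NGP and 7 and 4 in SK-N-BE(2)c; with ASO10 it was 3 and 2, a share of higher calls below that of all genes in NGP, and then 6 and 4. In IMR32, 2 of 13 rose with each ASO and 3 (ASO1) and 2 (ASO2) fell. GPT2 rose in both lines (for NGP 0.88 and 1.00, for SK-N-BE(2)c 0.67 and 1.62) and fell in IMR32 (by 0.38 and 0.20). GLUL, the glutamine synthetase, rose with ASO2 in all 3 lines (0.53 in IMR32, 0.60 in NGP, 0.88 in SK-N-BE(2)c) and fell with ASO10 in SK-N-BE(2)c (by 0.22). OAT, which links ornithine and proline, rose with ASO2 in all 3 lines (0.64, 0.81 and 1.00) and did not pass with ASO10.

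Markers of cell state also changed in these libraries, and their association with the enzymes was not computed. Of the 10 adrenergic markers, 6 fell and 1 rose with ASO2 in NGP, 9 fell with ASO10 there, 7 fell and 3 rose with ASO2 in SK-N-BE(2)c and 9 fell with ASO10; in IMR32, 3 fell with each ASO. HAND2 fell by 0.27 and 0.60 in NGP (ASO2 and ASO10) and by 0.35 and 0.58 in SK-N-BE(2)c, and PHOX2A fell in all 6 comparisons (by 0.38 to 0.52). The mesenchymal genes did not move as one. With ASO2, 3 of 4 tested rose and 1 fell in each of these lines (median 0.47 for NGP, 0.45 for SK-N-BE(2)c), while with ASO10 1 rose and 1 fell in NGP (median -0.14) and 1 rose and 0 fell in SK-N-BE(2)c (median -0.20). In IMR32, 0 of 6 passed with ASO1 and 3 rose with ASO2. VIM rose in all comparisons other than ASO1 in IMR32 (0.26 to 0.54), while PRRX1 in IMR32 and SK-N-BE(2)c and YAP1 in NGP were at 3 reads or fewer in every group. The 8 mesenchymal genes listed summed to 10366 to 10607 normalized counts in the NCA libraries of NGP, 14418.5 to 15260.2 with ASO2 and 11593 to 12436 with ASO10, to 7525 to 8120.2 (NCA), 10115 to 10894 (ASO2) and 8718 to 8871 (ASO10) in SK-N-BE(2)c, and to 3327 to 3819 (NCA), 3519 to 4029.9 (ASO1) and 4438 to 4623 (ASO2) in IMR32. With ASO10 in these 2 lines the sum was above NCA although the median of the tested genes was below 0. The part of cell state in the enzyme values was not tested, and in bulk RNA fewer cells of one state and less RNA per cell cannot be told apart.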

How the data were processed

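The study measured gene expression by RNA sequencing in 30 libraries of 9 groups (3 cell lines, 1 control and 2 NESPR-directed ASOs each). Groups and replicate numbers were taken from the sample titles; the labels do not call replicates separate cultures, so p-values measure only the spread between these libraries, which may be technical. In SK-N-BE(2)c and NGP the control columns are spelled one way for replicate 1 and another for replicates 2 and 3, which could mark another control oligonucleotide.

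The authors deposited normalized counts, 1 table per line, treated here as a signal: gene counts divided by 1 size factor per library. Per the submitters' processing notes, FastQC 0.11.8, cutadapt 1.18, STAR 2.6.0, HTSeq 0.6.1, DESeq2 1.42.0 and the build GRCh37 (hg19) were used, with no roles given; annotation and strand setting are not given in the sources used here. Low values gave the size factors, and 100% of values were then whole reads (tolerance 0.01). The IMR32 table had been scaled alone and listed other genes, so its levels were not compared with the other lines, which had been scaled jointly. Of its values, 0.172% lay in 174 rows without a gene ID, which were left out. Per-sample columns left unused numbered 0.

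Log2(value + 1) was tested, two-sided, with limma 3.58.1 in R 4.3.3 (group means, variance trend; a mean normalized count of at least 10 was required, met by 17309 genes for IMR32, 14440 for NGP, 13556 for SK-N-BE(2)c) and Benjamini-Hochberg adjustment over all of them; a call is an adjusted p under 0.05. The log scale understates changes of low genes. Differences between lines came from 1 fit of the 18 SK-N-BE(2)c and NGP libraries. The script was tested on simulated data. Alternatives were other pseudocounts, filters, scalings, tests (edgeR 4.0.16 and DESeq2 1.42.0 on recovered reads), a replicate block and leaving out libraries. Exon lengths came from GENCODE 29 and promoter sequences from RefSeq, both on GRCh38 and used for no position of the reads. The 10 enzymes and the other gene lists were chosen with earlier results of these data known. The genes named beside the enzymes are, per list, up to 3 with the largest mean absolute log2 fold change among those called in at least 4 of the 6 comparisons with NCA, with ATF4, DDIT3, TRIB3 and CHAC1 in any case, and the 3 with the highest Pearson's r to PHGDH, SHMT2 and ASNS. CD3E, PRRX1, YAP1 and the genes that overlap an enzyme were named outside this rule, and 1 gene that it names is not reported here.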

Additional observations from a re-analysis of the deposited data

Results flagged for a closer look

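In 2 of 30 enzyme and group combinations with 4 libraries, 1 library lay far from the other 3, where chance gives about 1 in 20. PSAT1 was 2953 normalized counts in replicate 1 of NCA in IMR32 and 2422 to 2498 in the others, and SHMT1 was 467 in replicate 4 of the same group and 441 to 445 in the others.

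The response to an ASO differed between SK-N-BE(2)c and NGP by the test of the difference in limma for 9 values (log2, SK-N-BE(2)c minus NGP). For ASO2 these were ALDH1L2 at -0.85 (adjusted p = 1.31e-05), MTHFD1L at -0.39 (adjusted p = 0.00995) and PSAT1 at -0.28 (adjusted p = 0.0215). For ASO10 they were MTHFD2 at -0.56, ALDH1L2 at -0.50, PSAT1 at -0.38, ASNS at 0.36, MTHFD1 at 0.32 and SHMT2 at 0.25 (adjusted p 1.91e-05 to 0.0334).

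PHGDH and PSPH fell with ASO2 in IMR32 and rose with it in the other lines, each time without overlap between the ASO2 and NCA libraries. The log2 fold change of PHGDH was higher by 1.32 in NGP and by 1.23 in SK-N-BE(2)c than in IMR32, and that of PSPH by 1.03 and 0.75. These differences between lines were not tested, since the IMR32 table was scaled apart and lists other genes.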

How the results depend on the processing

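Of 48 enzyme calls against NCA, 42 were kept under every alternative run and 0 changed direction; of 70 calls over all comparisons, 60 were kept. The 6 lost calls against NCA, and the 4 lost between ASOs or lines, are given with their values in the report. Requiring in addition an absolute log2 fold change of at least 0.5 left 4 (ASO2) and 5 (ASO10) enzymes higher and 1 lower with each in NGP, 3 higher with each ASO and 3 (ASO2) and 1 (ASO10) lower in SK-N-BE(2)c, 1 lower with each ASO in IMR32, 5 (SK-N-BE(2)c) and 1 (NGP) that differed between ASOs, and 1 each for the differences between lines. The share of all genes called at this size was not computed. The 0 enzymes that differed between ASO1 and ASO2 in IMR32 became 3 after rescaling to the same total, 5 with the replicate number as a block, 5 without the 3 libraries numbered 1 (an alternative chosen after seeing the data), and 0 to 3 when single libraries were left out (3 without ASO2 replicate 1, 2 without ASO1 replicate 1, 1 without NCA replicate 1 or ASO2 replicate 4). Among all genes, 3795 of 17309 differed in the main fit, 3933 after rescaling and 5677 with the block. Without the libraries numbered 1 it was 5016 of 17393, and 2726 to 4437 when single libraries were left out.

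Signs changed only for values near 0 that did not pass the test. After rescaling to the same total these were MTHFD2 with ASO1 in IMR32 (0.012), MTHFD1 with ASO2 in IMR32 (-0.00057), MTHFD1L between the ASOs in IMR32 (0.015), PHGDH in SK-N-BE(2)c (ASO2 against ASO10) (-0.041) and MTHFD2 in the difference between lines for ASO2 (-0.051). The difference between lines of PSPH for ASO10 became 0.0016 with a pseudocount of 5 and 0.013 with DESeq2. With single libraries left out, the ranges were -0.067 to 0.056 for MTHFD2 with ASO1 in IMR32, -0.018 to 0.074 for MTHFD1 with ASO2 in IMR32, -0.093 to 0.0028 for MTHFD1 with ASO10 in NGP, -0.0083 to 0.15 for PHGDH and -0.18 to 0.014 for PSAT1 between the ASOs in IMR32, -0.081 to 0.069 for PSPH in SK-N-BE(2)c (ASO2 against ASO10), and, for the differences between lines, -0.025 to 0.054 for MTHFD2 (ASO2) and -0.17 to 0.10 for PSPH (ASO10). The cause was not tested.

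The labels do not say what a replicate number marks, and in no pair of groups did every pair of equal numbers deviate together with a correlation over 0.1 (0.05 to 0.32 for ASO1 and NCA in IMR32). The IMR32 libraries numbered 1 did so in all 3 pairs of groups (0.26 to 0.33), as did those numbered 3 (0.11 to 0.16). With the replicate block, 7 enzymes fell with ASO1 and 9 with ASO2 in IMR32, and the counts in SK-N-BE(2)c and NGP moved by at most 1. Of all 17309 genes in IMR32, 3356 (ASO1) and 3406 (ASO2) were called lower with the block, beside 2496 and 2556 without it. ASNS in IMR32, at 163 to 308 normalized counts per library, had an SE of 0.13. SHMT1 in SK-N-BE(2)c, at 193 to 378, had 0.11. In NGP, PSPH (0.12) and SHMT1 (0.11) had an SE of similar size. Whether low counts set this spread was not tested.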
